A study of Mus musculus with 12 samples.

Results

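The genes described here are the interleukins, the colony-stimulating factors and the tumour necrosis factor (TNF) superfamily, together with their receptors. They were chosen by symbol alone and by no measured value: every gene whose symbol begins with Il, Tnfsf or Tnfrsf followed by a digit, or with Csf followed by 1, 2 or 3, and the genes Tnf, Lif, Osm, Osmr and Ebi3. This gave 116 of the 17920 genes listed, of which 81 were expressed enough to be tested and 35 were not. The symbol rule also takes in Il4i1, which encodes a secreted amino acid oxidase and not an interleukin.

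Cytokines of these families are secreted or membrane-bound signals of leukocytes and epithelium that act at low concentration. A response needs a receptor chain that binds the cytokine, and many interleukin receptors also need another chain, often shared between receptors. For many interleukins and colony-stimulating factors the signal passes to JAK kinases and STAT factors. For the IL-1 family it passes to MyD88 and IRAK kinases, and for TNF receptors and the IL-17 family to TRAF adaptors and NF-kB. Bacterial lipopolysaccharide (LPS) induces Tnf, Il1b and Il6 within hours in macrophages, and decoy receptors, antagonists and anti-inflammatory chains such as the IL-10 receptor limit the response afterwards.

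RNA came from whole lungs of male BALB/c mice aged 6 to 8 weeks, with 1 library per mouse and 3 mice per group, sampled from a study of 24 mice with 6 per group after 14 days of modelling. LPS+bLF mice received LPS and bovine lactoferrin (bLF, an iron-binding glycoprotein of milk), LPS mice received LPS in a volume of 50 µL at 1 µg/µL, bLF mice received 200 mg/kg of bLF per day, and control mice had no agent named. For LPS+bLF the labels give no doses of its own, and for LPS they leave out the route and the day. The groups form a design of LPS or none crossed with bLF or none, so the questions were how the cytokine genes differed with LPS, and how bLF altered them with and without LPS.

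Expression is given as FPKM (fragments scaled by gene length and by library total), with the value in each library listed from replicate 1 to 3. Total counts were 16714327 to 17820645 per library, so that a count of 0 allowed up to 0.168 to 0.179 CPM (counts scaled by the library total; 3 counts, counting error only). All 8 lung markers examined (among them the surfactant gene Sftpc and the club cell gene Scgb1a1) were detected in every library. LPS replicate 1 stood apart from the other libraries. Its median Spearman correlation with the other libraries over tested genes was 0.905, against 0.940 to 0.978 elsewhere, and by TMM-scaled CPM (trimmed mean of M-values factors) it held the highest or lowest value for 58.0% of the 81 tested cytokine and receptor genes and 63.2% of all tested genes. Its summed neutrophil markers (9 of 9 detected) reached 1568 FPKM, against 187 to 611 FPKM in the other 11 libraries. Its sums of NK, T cell and B cell markers were the lowest of all. For T cells the sum was 43.2 FPKM there and 44.1 FPKM in bLF replicate 3. Some single lymphocyte markers, among them Lat, Cd3d and Pax5, were not lowest in LPS replicate 1. S100a9 (607 FPKM) and Retnlg (594 FPKM) made up much of that neutrophil sum. LPS replicate 1 was the highest library for S100a9, Retnlg, Mmp9, Camp, Ngp and Mmp8, but not for S100a8, Ly6g or Cxcr2. In control replicate 2 Scgb1a1 made up 23.8% of all counts, against 1.68 to 7.43% in the others, which lowers the FPKM of other genes in that library, so the separation of groups was also read on TMM-scaled CPM. LPS+bLF replicate 2 had the highest summed B cell markers (580 FPKM) and mast cell and basophil markers (143 FPKM). LPS+bLF replicate 3 had 3058 FPKM of skeletal muscle and 774 FPKM of squamous epithelium markers. Brown fat markers summed to 4891 FPKM in LPS+bLF replicate 2, 3179 FPKM in control replicate 1 and 1631 FPKM in bLF replicate 1, against 22.25 to 401 FPKM elsewhere. Heart muscle markers summed to 3725 FPKM in bLF replicate 1, 2799 FPKM in LPS+bLF replicate 2 and 689 FPKM in control replicate 1. Values without LPS replicate 1 are given beside the results they change. Some values without control replicate 2, LPS+bLF replicate 2 or LPS+bLF replicate 3 are given as well.

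**Figure D1:**
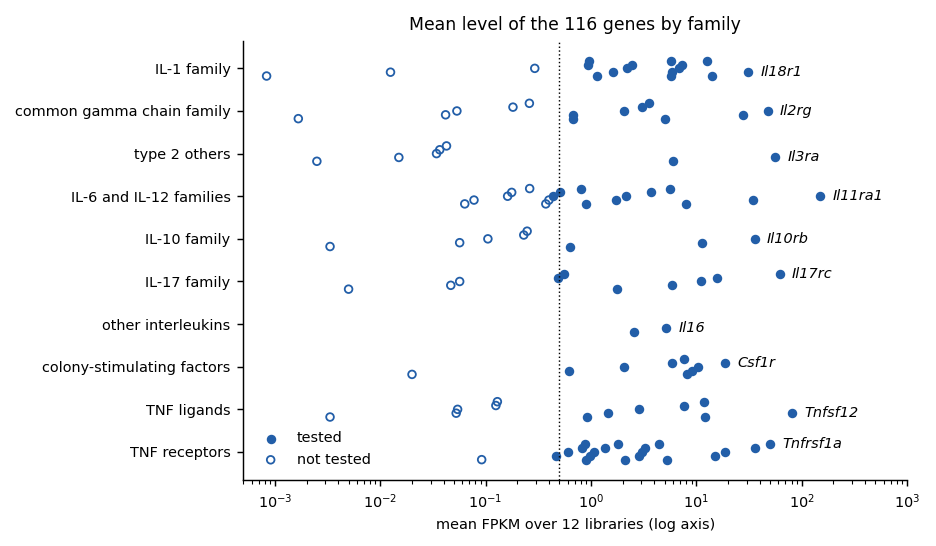
Mean FPKM over the 12 libraries (x axis, log scale) for each of the 116 genes, by family (y axis), with filled points for tested genes and open points for genes that were not tested; the dotted line marks 0.5 FPKM. The highest gene of each family is a receptor chain in 8 of the 10 families, and 23 of the 35 genes not tested, at the left, are not receptor chains.

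Most of the abundant genes were receptor chains. The highest mean levels over the 12 libraries belonged to Il11ra1 (150 FPKM, the IL-11 binding chain), Tnfsf12 (80.8 FPKM, the ligand TWEAK), Il17rc (62.3 FPKM), Il3ra (56.1 FPKM), Tnfrsf1a (50.5 FPKM, the death-domain TNF receptor), Il2rg (47.7 FPKM, the common gamma chain), Tnfrsf12a (36.3 FPKM, the TWEAK receptor Fn14), Il10rb (35.8 FPKM), Il6st (34.5 FPKM, the shared signalling chain gp130) and Il18r1 (31.1 FPKM). The highest library for Il3ra (262 FPKM) and Il11ra1 (336 FPKM) was LPS replicate 1, which raised their means. Of the 116 genes, 22 had a mean of at least 10 FPKM and 62 of at least 1 FPKM. Among ligands, Il1b averaged 14.1 FPKM, Il18 12.5 FPKM, Il34 9.04 FPKM, Csf2 7.61 FPKM, Il33 7.26 FPKM and Csf1 5.90 FPKM, whereas Tnf averaged 0.917 FPKM. Csf2 (GM-CSF) is made by alveolar epithelium and maintains alveolar macrophages, and Il33 is stored in the nuclei of barrier epithelium.

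The classical T helper cytokines were at or near the limit of detection. Il17a had 1 count over all 12 libraries, Il21 had 1, Il4 and Il13 had 3 each, Il2 had 8, Il5 had 10 and Il10 had 13. Il6 had 47 counts in all, of which 21 lay in LPS replicate 1 (1.46 FPKM), and it was at 0.25, 0.19 and 0.06 FPKM in LPS+bLF lungs, 1.46, 0.07 and 0.25 FPKM in LPS lungs, 0.19, 0.00 and 0.27 FPKM in bLF lungs and 0.07, 0.14 and 0.19 FPKM in control lungs. Csf3, the granulocyte growth factor, had 5 counts in all, and Lif reached 0.64 FPKM at most. The 35 genes that fell short of 0.5 FPKM in 3 libraries comprised 3 of 17 genes of the IL-1 family, 5 of 13 of the common gamma chain family, 5 of 7 other type 2 genes, 7 of 18 of the IL-6 and IL-12 families, 5 of 8 of the IL-10 family, 3 of 10 of the IL-17 family, 1 of 9 of the colony-stimulating factors, 5 of 12 TNF ligands and 1 of 20 TNF receptors. The group of other type 2 genes also took in Il3ra, a chain for IL-3. Some of the 35 had more counts than tested genes: Lif had 295 counts over the 12 libraries and Il22ra1 291, against 92 for the tested gene Il27. In an edgeR fit without the filter 0 of the 35 passed adjustment in any comparison, and at an unadjusted p under 0.05 stood Il11 and Il23a for LPS versus control (log2 fold changes of 1.51 ± 0.67 and 2.15 ± 0.97, SE), Il11 for LPS+bLF versus LPS (−2.03 ± 0.69, SE) and Il2 for the average bLF effect. A few of the 35 were high in a single library, and these were picked out after their values were seen. Il1f6 (IL-36 alpha), an epidermal cytokine, was at 3.51 FPKM (40 counts) in LPS+bLF replicate 3 and at 0 in the other 11 libraries, Il11 was at 1.51 FPKM and Il19 at 0.97 FPKM in LPS replicate 1, and Il22ra2, the soluble IL-22 decoy receptor, was at 1.13 FPKM in LPS+bLF replicate 2.

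LPS versus control asked which cytokine genes differed after LPS alone. The genes with the smallest p were all higher in LPS lungs: Il18rap, Il10ra, Ebi3, Tnfrsf1b, Csf2rb, Il1rn, Osm, Il18, Il2rb, Il1r2, Il3ra, Il17ra, Tnfrsf11a, Tnfrsf9 and Tnfrsf26, 15 of 81, had an unadjusted p under 0.05 in edgeR's quasi-likelihood test, and 0 of 81 were lower at that level. Receptor chains made up 11 of the 15 and 54 of the 81. Over all 13735 tested genes the shares were 5.52% higher and 1.62% lower. Without LPS replicate 3 the counts were 17 higher and 2 lower, against 16.9% of all tested genes in either direction. With all libraries none passed Benjamini-Hochberg adjustment at 0.05, where 0% of all tested genes passed and the smallest adjusted p among the 81 was 0.0957. The median log2 fold change was 0.12 over the 81 genes and −0.04 over all tested genes. In bulk lung RNA, fewer cells of a type and less RNA per cell cannot be told apart.

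Il18rap encodes the accessory chain without which the IL-18 receptor does not signal, and it had the smallest p of the 81 genes. It was at 1.93, 1.41 and 1.55 FPKM in LPS+bLF lungs, 4.89, 4.00 and 3.43 FPKM in LPS lungs, 1.50, 1.79 and 1.33 FPKM in bLF lungs and 1.37, 1.73 and 1.35 FPKM in control lungs. All 3 LPS libraries lay above the other 9. The log2 fold change for LPS versus control was 1.54 ± 0.26 (SE, n = 3; adjusted p = 0.0957) with edgeR, and 1.27 ± 0.23 (adjusted p = 0.0637) without LPS replicate 1. DESeq2 called it (1.57, adjusted p = 4.5e-05) and 5 of the 79 genes with a DESeq2 p in all, against 1.02% of all genes. Other genes of the IL-18 axis had smaller values: Il18r1, the binding chain, had 0.04 ± 0.22, and Il18bp, the secreted inhibitor, had −0.33 ± 0.72, with 0.26 FPKM in LPS replicate 1 and 5.84 and 9.72 FPKM in LPS replicates 2 and 3. Il18 itself was at 11.2, 18.5 and 21.7 FPKM in LPS lungs and 11.0, 9.23 and 13.0 FPKM in control lungs, which overlap (0.69 ± 0.21, SE, edgeR adjusted p = 0.48). By TMM-scaled CPM it did not overlap, at 10.1, 12.1 and 15.0 in LPS lungs and 7.17, 7.17 and 8.70 in control lungs. IL-18 receptors are carried by NK and T cells among others, and the summed level of 10 NK and cytotoxic lymphocyte markers (8 of 10 above 0 in every library; Klre1 and Gzmb at 0 in at least 1) was 165 to 260 FPKM in LPS+bLF lungs, 24.9 to 582 FPKM in LPS lungs, 160 to 215 FPKM in bLF lungs and 123 to 152 FPKM in control lungs. In LPS replicates 1 to 3 the sums were 24.9, 582 and 535 FPKM, and Il18rap was at 4.89, 4.00 and 3.43 FPKM. The part of these cells in the Il18rap values was not tested.

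Il10ra, the ligand-binding chain of the IL-10 receptor, was high in every LPS-exposed library. It was at 12.7, 14.1 and 15.7 FPKM in LPS+bLF lungs, 13.5, 17.0 and 14.2 FPKM in LPS lungs, 9.03, 9.89 and 8.01 FPKM in bLF lungs and 9.41, 4.47 and 8.01 FPKM in control lungs. The 6 LPS-exposed libraries did not overlap the 6 others. For LPS versus control the log2 fold change was 1.10 ± 0.20 (SE, n = 3; adjusted p = 0.1), and 1.07 ± 0.22 (SE) without LPS replicate 1. Its partner Il10rb, which other receptors of the family share, was at 19.2, 43.6 and 50.4 FPKM in LPS lungs and 32.9, 35.0 and 48.1 FPKM in control lungs, so its groups overlapped.

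Ebi3 pairs with the p28 chain (Il27) in IL-27 and with the p35 chain (Il12a) in IL-35. It was at 9.19, 9.90 and 9.31 FPKM in LPS+bLF lungs, 6.68, 14.4 and 13.3 FPKM in LPS lungs, 6.20, 6.75 and 4.71 FPKM in bLF lungs and 5.07, 3.81 and 5.52 FPKM in control lungs. All LPS libraries were above all control libraries, with LPS replicate 1 the lowest of the 3. The log2 fold change was 1.33 ± 0.25 (SE, n = 3; adjusted p = 0.1), and without LPS replicate 1 Ebi3 rose by 1.55 ± 0.18 (SE; adjusted p = 0.0172). The levels of its partners overlapped between the groups: Il12a was at 0.00, 1.98 and 1.56 FPKM in LPS lungs and 1.46, 3.48 and 2.66 FPKM in control lungs, and Il27 was at 0.00, 0.47 and 0.39 FPKM in LPS lungs and 0.28, 0.58 and 0.86 FPKM in control lungs.

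Tnfrsf1b encodes TNFR2, the TNF receptor without a death domain that leukocytes carry. It was at 15.8, 14.9 and 17.5 FPKM in LPS+bLF lungs, 23.9, 19.8 and 19.9 FPKM in LPS lungs, 13.7, 13.0 and 11.9 FPKM in bLF lungs and 14.2, 6.85 and 10.7 FPKM in control lungs. The LPS libraries were the highest, the LPS+bLF libraries came next, and the 6 LPS-exposed libraries did not overlap the 6 others. Its log2 fold change for LPS versus control was 1.10 ± 0.22 (SE, n = 3; adjusted p = 0.133), and 0.88 ± 0.20 (SE) without LPS replicate 1. Tnfrsf1a, the receptor with the death domain, had 0.13 ± 0.18 (SE), and Tnf had 0.64 ± 0.73 (SE) with 0.09 FPKM in LPS replicate 1, 1.28 and 1.95 FPKM in LPS replicates 2 and 3, and 0.52 to 0.88 FPKM in control lungs. Leaving out LPS replicate 3 gave −0.11 for Tnf, and leaving out LPS replicate 1 gave 1.16.

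The promoters of 3 of these 4 genes are shown because their levels separated LPS from control lungs together. Each is 250 bases before and 50 bases after the start site, 5′ to 3′ on the strand of the gene, from RefSeq (GRCm38.p6). Capitals mark matches, on either strand, to simple forms of the motifs of NF-kB (GGANNTTCC), PU.1 (GAGGAA), AP-1 (TGANTCA), STAT (TTCNNNGAA) and the interferon-stimulated response element, ISRE (GAAANNGAA). The intervals are chr1:40515112-40515411 (+) for Il18rap, chr17:55952373-55952672 (+) for Ebi3 and chr4:145246821-145247120 (−) for Tnfrsf1b.
Il18rap: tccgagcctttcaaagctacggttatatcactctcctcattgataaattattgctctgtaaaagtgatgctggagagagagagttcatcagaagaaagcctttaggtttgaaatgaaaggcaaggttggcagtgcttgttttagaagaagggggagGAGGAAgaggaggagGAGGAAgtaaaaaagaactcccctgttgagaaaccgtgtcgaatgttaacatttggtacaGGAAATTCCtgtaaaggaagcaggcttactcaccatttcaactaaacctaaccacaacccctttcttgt
Ebi3: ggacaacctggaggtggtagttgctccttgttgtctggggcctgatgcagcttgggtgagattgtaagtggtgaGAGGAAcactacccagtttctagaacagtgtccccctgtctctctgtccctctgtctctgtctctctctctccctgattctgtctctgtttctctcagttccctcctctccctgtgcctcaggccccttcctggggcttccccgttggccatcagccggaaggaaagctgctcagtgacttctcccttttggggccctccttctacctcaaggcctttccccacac
Tnfrsf1b: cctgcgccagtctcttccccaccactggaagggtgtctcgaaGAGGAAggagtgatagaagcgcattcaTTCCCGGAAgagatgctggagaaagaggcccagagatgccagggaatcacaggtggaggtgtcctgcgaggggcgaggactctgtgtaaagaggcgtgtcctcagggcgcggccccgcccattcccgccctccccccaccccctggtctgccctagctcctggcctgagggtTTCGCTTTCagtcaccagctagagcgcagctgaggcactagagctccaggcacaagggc

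The Il18rap promoter has a pair of PU.1 matches, starting at −94 and −79 from the start site, inside a run of purines, and an NF-kB match at −19. The Ebi3 promoter has a PU.1 match at −176 and no other match. The Tnfrsf1b promoter has a PU.1 match at −208, a STAT match at −181 and an ISRE match at −9. Such short motifs are frequent. Of 32851 promoters of this length, 4.26% hold the NF-kB form, 28.3% the PU.1 form, 7.81% the AP-1 form, 8.3% the STAT form and 8.56% the ISRE form, and among the 108 promoters of 89 cytokine and receptor genes in the table the shares were 13%, 35.2%, 18.5%, 15.7% and 13% in the same order. No 2 of these forms share bases in the 3 promoters printed, and whether any match is bound was not measured.

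**Figure D2:**
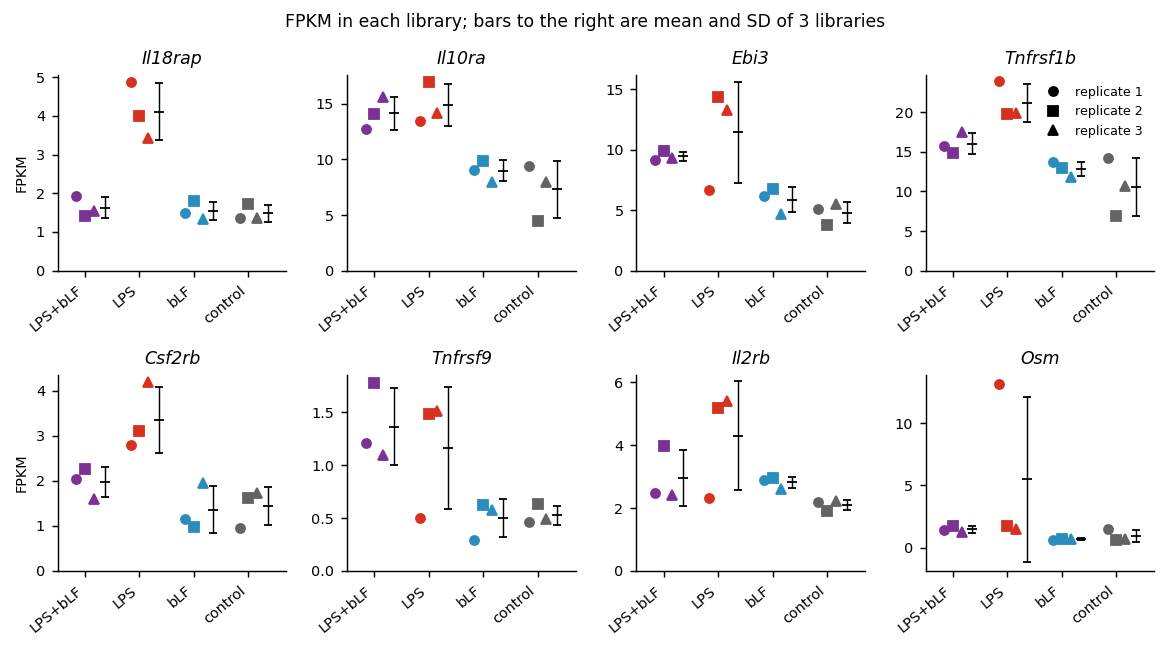
FPKM in each library (y axis) of the 8 genes Il18rap, Il10ra, Ebi3, Tnfrsf1b, Csf2rb, Tnfrsf9, Il2rb and Osm, by group (x axis: LPS+bLF, LPS, bLF, control), with a marker shape for each replicate and a bar for mean and SD of 3 libraries. Il18rap is highest in the 3 LPS libraries, Il10ra and Tnfrsf1b are high in both LPS-exposed groups, and the Osm mean in LPS lungs is set by replicate 1 at 13.2 FPKM.

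Other receptor chains had larger p values for LPS versus control. Csf2rb, the beta chain shared by the receptors of GM-CSF, IL-3 and IL-5, was at 2.05, 2.26 and 1.60 FPKM in LPS+bLF lungs, 2.79, 3.11 and 4.19 FPKM in LPS lungs, 1.16, 0.98 and 1.95 FPKM in bLF lungs and 0.96, 1.62 and 1.74 FPKM in control lungs. The LPS libraries were above the other 9, with a log2 fold change for LPS versus control of 1.25 ± 0.33 (SE, n = 3; adjusted p = 0.369). Its near-identical neighbour Csf2rb2, the IL-3 receptor beta chain of mice, had 0.83 ± 0.52 (SE), and how reads were split between this pair of genes is not given in the sources used here. Il2rb, the signalling chain for IL-2 and IL-15 on T cells and NK cells, stood at 2.32, 5.18 and 5.42 FPKM in LPS lungs and 2.18, 1.92 and 2.21 FPKM in control lungs. LPS replicate 1 barely exceeded control there, and the fold change was 1.04 ± 0.33 (SE; adjusted p = 0.535) with it, while without it Il2rb rose by 1.37 ± 0.22 (SE; adjusted p = 0.0476). The NK and cytotoxic marker sums were 24.9, 582 and 535 FPKM in LPS replicates 1 to 3 and 123 to 152 FPKM in control lungs. Both these sums and Il2rb were high in LPS replicates 2 and 3. In LPS replicate 1 the sum was below control, whereas Il2rb was not. The part of these cells in the result was not tested.

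TNF receptors had values of both signs. Of the 19 tested, 12 had a positive and 7 a negative log2 fold change, with 4 higher and 0 lower at an unadjusted p under 0.05. Tnfrsf9 (4-1BB) was at 0.50, 1.48 and 1.51 FPKM in LPS lungs and 0.46, 0.63 and 0.49 FPKM in control lungs (log2 fold change 1.11 ± 0.46, SE, n = 3; 1.42 without LPS replicate 1). Tnfrsf18 (GITR) was at 4.68, 8.60 and 4.69 FPKM in LPS lungs and 3.56, 3.54 and 3.67 FPKM in control lungs, without overlap (0.72 ± 0.35, SE). Tnfrsf11a (RANK) was at 0.86, 0.80 and 0.86 FPKM in LPS lungs and 0.70, 0.58 and 0.56 FPKM in control lungs, again without overlap (0.58 ± 0.24, SE). Receptors of B cells overlapped between the groups: Tnfrsf13c was at 0.00, 1.26 and 1.15 FPKM in LPS lungs and 1.03, 0.86 and 1.74 FPKM in control lungs (−0.61 ± 0.99, SE), and Tnfrsf17 at 0.00, 0.61 and 0.50 FPKM in LPS lungs and 0.42, 1.06 and 0.70 FPKM in control lungs (−1.01 ± 0.79, SE). Without control replicate 2 the values of Tnfrsf11a (0.60), Tnfrsf26 (0.91) and Il17ra (0.70) no longer had an unadjusted p under 0.05. By FPKM, 11 of the 81 genes had all LPS libraries above all control libraries, against 4% of all tested genes, and 1 had all below, against 3.92%. That 1 was Tnfrsf12a, at 28.8, 34.4 and 35.2 FPKM in LPS lungs and 43.9, 48.2 and 38.2 FPKM in control lungs (−0.32 ± 0.22, SE).

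Part of the list rested on LPS replicate 1. Il1r2, the decoy receptor that binds IL-1 without signalling and is abundant on neutrophils, was at 50.7, 0.77 and 1.16 FPKM in LPS lungs and 0.66, 0.81 and 0.94 FPKM in control lungs. Its log2 fold change was 4.53 ± 1.46 (SE, n = 3) with all libraries and 0.18 ± 0.72 (SE) without LPS replicate 1. Osm (oncostatin M, a gp130 cytokine of neutrophils and macrophages) was at 13.2, 1.78 and 1.53 FPKM in LPS lungs and 1.46, 0.59 and 0.72 FPKM in control lungs, and its log2 fold change was 2.80 ± 0.81 with that library and 0.81 ± 0.36 without it (SE). Il3ra was at 262, 44.4 and 26.3 FPKM in LPS lungs and 41.7, 18.1 and 24.7 FPKM in control lungs, with log2 fold changes of 2.07 ± 0.71 and, without LPS replicate 1, 0.32 ± 0.29 (SE). Il17ra had 0.94 ± 0.36 and 0.38 ± 0.26 (SE) in the same order. Il1rn, the IL-1 receptor antagonist, was at 6.32, 3.04 and 2.95 FPKM in LPS lungs and 1.97, 1.47 and 1.78 FPKM in control lungs, and its value was 1.36 ± 0.39 (SE) with and 0.74 ± 0.26 (SE) without that library. Replicate 1 was highest for all 5 of these genes, and the LPS libraries of Il1rn and Osm stayed above control when it was set aside. Neutrophil markers were at 263 to 1568 FPKM in LPS lungs and 187 to 611 FPKM in control lungs, with 9 of 9 above 0 in every library. Their highest sum lay in LPS replicate 1, though S100a8, Ly6g and Cxcr2 were not highest there. The part of neutrophils in these values was not tested.

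**Figure D3:**
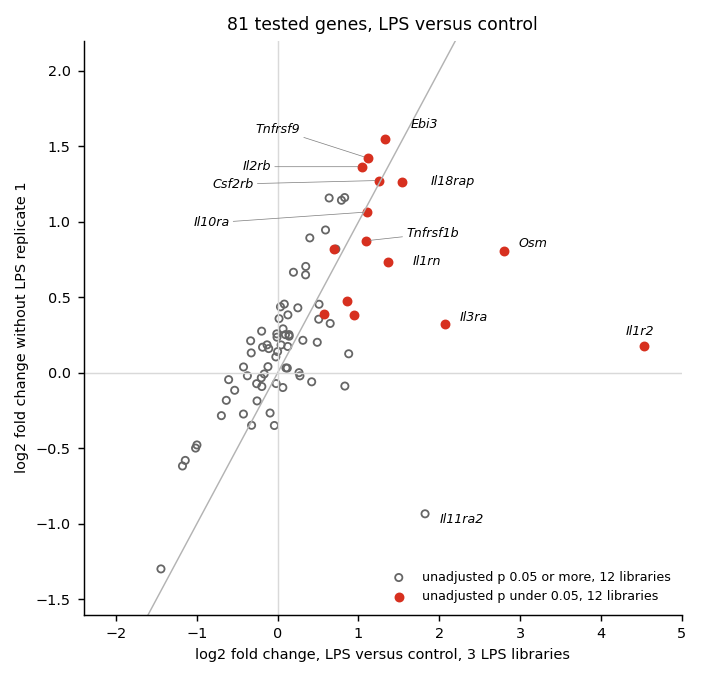
Log2 fold change of LPS versus control for the 81 tested genes with all libraries (x axis) and without LPS replicate 1 (y axis); filled points had an unadjusted p under 0.05 with all libraries and the diagonal is equality. Ebi3, Il18rap, Il10ra and Csf2rb stay near the diagonal, whereas Il1r2 moves to 0.18 and Il3ra to 0.32 without that library.

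The same library held down other members. By TMM-scaled CPM it had the lowest level of 30 of the 81 genes, against 34.9% of all tested genes. Among the 30 were Il33 (1.52 FPKM, against 9.54 and 12.1 FPKM in LPS replicates 2 and 3), Csf2 (1.18 FPKM, against 11.4 and 9.20 FPKM), Il18bp, Tnfsf9, Tnfrsf14 and Il27ra, while Il12a, Tnfrsf13c and Tnfrsf17 were listed at 0 there. Without LPS replicate 1, 16 of 81 genes were higher in LPS than control at an unadjusted p under 0.05, against 3.83% of all tested genes, and 2 passed adjustment, against 0.182%: Ebi3 and Il2rb. Genes that joined the 16 included Il1rl1, the IL-33 receptor ST2 (1.14, unadjusted p = 0.00562), Csf2 (0.67, unadjusted p = 0.00855), Csf1r (0.43, unadjusted p = 0.0285) and Tnf (1.16, unadjusted p = 0.029). Il1b, at 15.5, 14.5 and 21.1 FPKM in LPS lungs and 5.05, 17.1 and 14.2 FPKM in control lungs, had 0.51 ± 0.42 with it and 0.45 ± 0.47 without it (SE).

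By family, the 15 genes at an unadjusted p under 0.05 were 4 of 14 tested genes of the IL-1 family, 1 of 8 of the common gamma chain family, 1 of 2 of the other type 2 genes, 2 of 11 of the IL-6 and IL-12 families, 1 of 3 of the IL-10 family, 1 of 7 of the IL-17 family, 1 of 8 of the colony-stimulating factors, 0 of 7 TNF ligands and 4 of 19 TNF receptors. The 1 gene counted with the other type 2 genes was Il3ra, a chain for IL-3 placed in that group, and its value rested on LPS replicate 1. Signalling genes of the pathways of these families were listed by name. Their counts stand against the shares of 5.52% higher and 1.62% lower over all tested genes. Of 17 JAK-STAT genes, 2 were higher at that level (Stat3 0.58 ± 0.24 and Jak3 0.59 ± 0.25) and 0 lower. Of 17 genes of TNF receptor signalling, 3 were higher, all negative regulators or inhibitors of cell death: Tnfaip3, which encodes A20 (0.69 ± 0.20), Nfkbia, which encodes IkB alpha (1.00 ± 0.41, and 0.21 without LPS replicate 1), and Birc3 (0.50 ± 0.17; all SE, n = 3). Of 11 adaptor genes of IL-1 and Toll-like receptors, 0 differed at that level, with Myd88 at 0.10 ± 0.15 (SE). Of 8 tested TNF superfamily genes under other symbols, Relt was higher (1.34 ± 0.30) and Eda lower (−0.99 ± 0.37, SE).

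**Figure D4:**
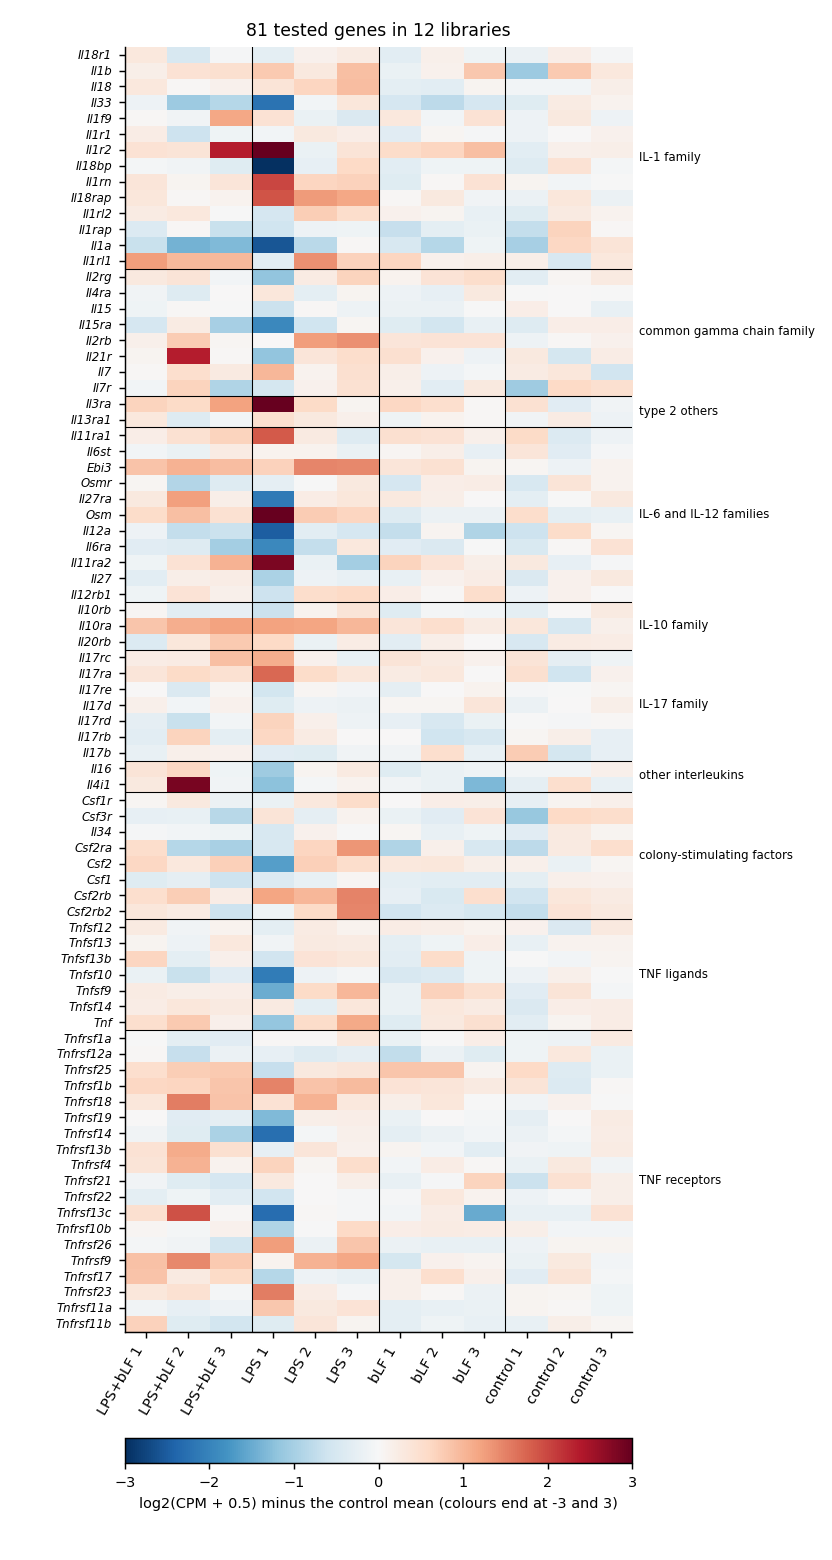
Log2(CPM + 0.5) minus the control mean for the 81 tested genes (rows, by family) in the 12 libraries (columns), from blue for lower to red for higher. The column of LPS replicate 1 holds many of the extreme values, for example dark red for Il1r2, Osm and Il3ra and dark blue for Il18bp and Tnfrsf13c, and the rows of Il10ra and Ebi3 are red in all 6 LPS-exposed libraries.

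LPS+bLF versus LPS asked whether the cytokine genes differed when bLF was given with LPS. Il18rap was lower, and so were Tnfrsf11a, Tnfrsf26, Il1rn, Il17rd, Osm, Il18 and Csf2rb, 8 of 81 genes at an unadjusted p under 0.05, against 3.65% of all tested genes. Higher at that level were Tnfrsf17, Il4i1 and Tnfrsf13b, 3 of 81 against 3.27%. With edgeR 0 of the 81 passed adjustment, against 0% of all tested genes, and the smallest adjusted p was 0.689. Without LPS+bLF replicate 2 the counts were 1 higher and 6 lower, against 3.31% of all tested genes in either direction, without LPS+bLF replicate 3 they were 4 and 5, against 5%, and in a fit of only these groups 0 and 3, against 3.38%. Genes no longer at that level were Il4i1, Tnfrsf13b, Il18, Il1rn and Il17rd without LPS+bLF replicate 2, and Tnfrsf26, Osm, Il18 and Csf2rb without LPS+bLF replicate 3. The median was −0.06 over the 81 genes and −0.02 over all tested genes.

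For Il18rap all 3 LPS+bLF libraries (1.41 to 1.93 FPKM) lay below all 3 LPS libraries (3.43 to 4.89 FPKM), with a log2 fold change of −1.38 ± 0.26 (SE, n = 3; edgeR adjusted p = 0.689). DESeq2 called it (−1.40, adjusted p = 0.0138), 1 of 79 genes against 0.0516% of all genes, and without LPS replicate 1 the edgeR value was −1.11 ± 0.23 (SE; unadjusted p = 0.000621). The difference between the bLF effect with LPS and the bLF effect without LPS, the interaction, was −1.44 ± 0.37 (SE; edgeR unadjusted p = 0.00236, adjusted p = 1). The interaction had 1 of 81 genes higher (Il4i1) and 3 lower (Il18rap, Tnfrsf1b and Il2rb) at an unadjusted p under 0.05, against 1.26% and 1.54% of all tested genes, and 0 passed adjustment, against 0%. With 1 library left out the number lower ran from 1 to 6 and the number higher from 0 to 2. The counts were 6 lower and 1 higher without LPS replicate 2, against 4.14% of all tested genes in either direction. They were 5 and 2 without LPS replicate 3, against 5.51%. The number lower was 1 without control replicate 2, control replicate 3, bLF replicate 2 or LPS+bLF replicate 1. There the shares of all tested genes in either direction were 2.19%, 2.66%, 1.59% and 3.73%. For Il4i1 the interaction was 2.69, and 1.02 without LPS+bLF replicate 2. Tnfrsf1b had an interaction of −0.75 ± 0.31 (SE), and Il2rb had −1.08 ± 0.47 (SE), which was −1.39 ± 0.29 without LPS replicate 1.

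LPS+bLF versus LPS shares the LPS libraries with LPS versus control, so a high LPS value raises the fold change of LPS versus control and lowers that of LPS+bLF versus LPS. Csf2rb had −0.77 ± 0.33 for LPS+bLF versus LPS, Il18 had −0.52 ± 0.21, and Tnfrsf11a had −0.78 ± 0.24 (SE, n = 3), with 0.58, 0.46 and 0.47 FPKM in LPS+bLF lungs and 0.80 to 0.86 FPKM in LPS lungs. Il1rn had −1.06 ± 0.38, and −0.43 ± 0.26 without LPS replicate 1 (SE). Osm had −2.05 ± 0.78, and −0.05 ± 0.36 without it (SE), and Il1r2 had −2.74 ± 1.32, and 1.62 ± 0.72 without it (SE). Il2rb was at 2.47, 3.97 and 2.40 FPKM in LPS+bLF lungs and 2.32, 5.18 and 5.42 FPKM in LPS lungs (−0.66 ± 0.33, and −0.98 ± 0.22 without LPS replicate 1; SE). Il10ra and Ebi3 were not among the lower genes: Il10ra had −0.08 (95% interval −0.52 to 0.37) and Ebi3 had −0.31 (−0.83 to 0.22). Without LPS replicate 1, Ebi3 had −0.52 (unadjusted p = 0.0176).

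The GM-CSF receptor alpha chain Csf2ra was at 11.0, 3.74 and 3.62 FPKM in LPS+bLF lungs, 4.67, 13.4 and 20.6 FPKM in LPS lungs, 3.88, 8.83 and 5.08 FPKM in bLF lungs and 4.01, 8.46 and 11.5 FPKM in control lungs, with wide spread in every group (−0.97 ± 0.56, SE, for LPS+bLF versus LPS). Macrophage and monocyte markers (11 of 11 above 0 in every library) summed to 919 to 1754 FPKM in LPS+bLF lungs, 748 to 3714 FPKM in LPS lungs, 863 to 1737 FPKM in bLF lungs and 889 to 2555 FPKM in control lungs. Lyz2 weighed heavily in these sums, at 223, 1868 and 3247 FPKM in LPS lungs. Of the list, Adgre1, Ms4a7, C1qa, C1qb and C1qc were higher in every LPS library than in every control library. Cd68, Marco, Itgax, Lyz2, Ccr2 and Ly6c2 overlapped between these groups. The part of macrophages and monocytes in these values was not tested. Csf1r, the macrophage growth factor receptor, was at 18.4, 20.0 and 15.0 FPKM in LPS+bLF lungs and 12.8, 23.4 and 25.9 FPKM in LPS lungs (−0.19 ± 0.20, SE).

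Of the 3 genes that were higher in LPS+bLF lungs, Tnfrsf17 and Tnfrsf13b are receptors of plasma cells and B cells. Tnfrsf17 (BCMA, the plasma cell receptor of BAFF and APRIL) was at 1.84, 0.94 and 1.48 FPKM in LPS+bLF lungs, 0.00, 0.61 and 0.50 FPKM in LPS lungs, 0.86, 1.27 and 0.89 FPKM in bLF lungs and 0.42, 1.06 and 0.70 FPKM in control lungs. The LPS+bLF and LPS libraries did not overlap (2.04 ± 0.77, SE; 1.53 ± 0.57 without LPS replicate 1). Tnfrsf17 had few counts, with TMM-scaled CPM of 1.15, 0.597 and 0.859 in LPS+bLF lungs and 0, 0.321 and 0.276 in LPS lungs. A count of 0 allowed up to 0.168 to 0.179 CPM, so its LPS values were near the limit of detection. Tnfrsf13b (TACI) was at 3.68, 5.56 and 3.61 FPKM in LPS+bLF lungs and 1.81, 3.65 and 2.95 FPKM in LPS lungs (0.64 ± 0.26, SE). Il4i1 was at 2.21, 13.6 and 1.56 FPKM in LPS+bLF lungs and 0.49, 1.81 and 1.91 FPKM in LPS lungs, so its value of 2.11 ± 0.81 (SE) rested on LPS+bLF replicate 2 and was 0.44 without it. The value of Tnfrsf13b was 0.38 without that library, with an unadjusted p above 0.05. Il4i1 shares exon bases with Nup62 on the same strand and with Tbc1d17 on the opposite one, and the strand setting of the counting is not given in the sources used here. LPS+bLF replicate 2 was also the highest library for Il21r (7.71 FPKM, against 0.43 to 2.15 FPKM in the other 11), Il27ra (7.44 FPKM), Tnfrsf13c (BAFF receptor, 4.85 FPKM) and Tnfrsf18 (11.0 FPKM). A set of 9 B cell markers (8 of 9 above 0 in every library; Ms4a1 at 0 in at least 1) summed to 228 to 580 FPKM in LPS+bLF lungs, 46.1 to 169 FPKM in LPS lungs, 76.1 to 201 FPKM in bLF lungs and 115 to 205 FPKM in control lungs, with the highest in LPS+bLF replicate 2 and the lowest in LPS replicate 1. Plasma cell markers other than Tnfrsf17 (4 of 4 above 0 in every library) summed to 120 to 181 FPKM in LPS+bLF lungs, 57.5 to 140 FPKM in LPS lungs, 107 to 120 FPKM in bLF lungs and 94.7 to 128 FPKM in control lungs. The part of these cells in the values was not tested.

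LPS+bLF versus bLF gave the effect of LPS in mice that had bLF, from libraries that LPS versus control does not use. Il10ra (0.69 ± 0.20), Tnfrsf9 (1.52 ± 0.47), Tnfrsf13b (0.85 ± 0.26), Il4i1 (2.32 ± 0.82), Ebi3 (0.68 ± 0.24) and Tnfrsf18 (0.92 ± 0.35; all SE, n = 3) were higher at an unadjusted p under 0.05, 6 of 81 against 1.65% of all tested genes, and 0 were lower, against 1.02%. None passed adjustment with edgeR (adjusted p = 1 for each), as for 0% of all tested genes. Tnfrsf9 was at 1.21, 1.78 and 1.10 FPKM in LPS+bLF lungs and 0.29, 0.62 and 0.58 FPKM in bLF lungs, and Tnfrsf18 was at 4.81, 11.0 and 6.70 FPKM in LPS+bLF lungs and 4.18, 4.58 and 3.36 FPKM in bLF lungs. Except for Il4i1, the 6 genes had all LPS+bLF libraries above all bLF libraries by FPKM. Over the 81 genes, 9 had all LPS+bLF libraries above all bLF libraries and 2 had all below, against 5.13% and 6.87% of all tested genes. Without LPS+bLF replicate 2, the value of Il4i1 was 0.65 and that of Tnfrsf18 was 0.52, neither with an unadjusted p under 0.05. Without LPS replicate 1 the counts were 10 higher and 1 lower, against 6.19% of all tested genes in either direction. Il18rap had 0.09 (95% interval −0.48 to 0.66) in this comparison and Il2rb had −0.03 (−0.76 to 0.69). Of the 15 genes that were higher in LPS versus control at an unadjusted p under 0.05, 13 had a positive value here and 3 had an unadjusted p under 0.05, where the shares for all 758 such genes were 78.0% and 9.63%.

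**Figure D5:**
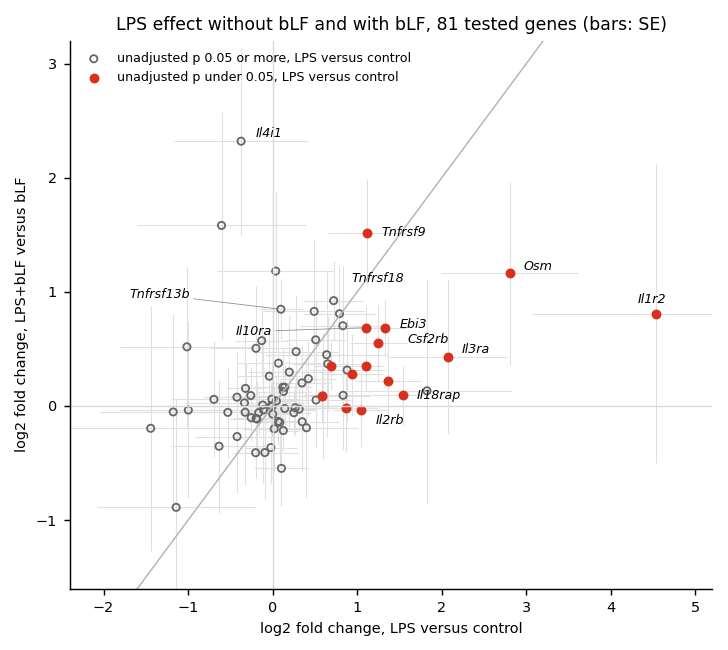
Log2 fold change of LPS versus control (x axis) and of LPS+bLF versus bLF (y axis) for the 81 tested genes, with bars of 1 SE; filled points had an unadjusted p under 0.05 in LPS versus control and the diagonal is equality. Il10ra, Ebi3 and Tnfrsf9 are positive in both, and Il18rap is at 1.54 on the x axis and 0.09 on the y axis.

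Averaged over mice with and without bLF, the LPS effect rests on 6 libraries against 6; this average was chosen after the levels were seen. It was led by Il10ra (0.89 ± 0.14, SE; edgeR adjusted p = 0.0716) and Ebi3 (1.01 ± 0.17, SE; edgeR adjusted p = 0.073), followed by Tnfrsf1b (0.72 ± 0.16), Il18rap (0.82 ± 0.18) and Tnfrsf9 (1.32 ± 0.33; SE). With all libraries 0 of 81 genes passed adjustment, against 0% of all tested genes, while 15 of 81 were higher and 0 lower at an unadjusted p under 0.05, against 4.92% and 1.77%. Without LPS replicate 1, 2 of 81 genes passed adjustment, against 0.32% of all tested genes: Ebi3 rose by 1.12 ± 0.12 (adjusted p = 0.0146) and Il10ra by 0.88 ± 0.15 (SE; adjusted p = 0.0437). DESeq2 called 6 of 79 genes with all libraries, against 1.02% of all genes, namely Il10ra, Ebi3, Tnfrsf1b, Il18rap, Tnfrsf9 and Csf2rb. By FPKM 3 genes had all 6 LPS-exposed libraries above all 6 others (Il10ra, Tnfrsf1b and Tnfrsf18), against 0.495% of all tested genes, and 3 by TMM-scaled CPM (Il10ra, Ebi3 and Tnfrsf1b), against 0.75%. Ebi3 overlapped by FPKM through LPS replicate 1 at 6.68 FPKM and bLF replicate 2 at 6.75 FPKM.

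bLF versus control asked how bLF alone altered these genes. None of the 81 was higher or lower at an unadjusted p under 0.05 with edgeR, against 0.714% and 0.663% of all tested genes, and 0 passed adjustment, against 0%; the DESeq2 count was also 0, against 0.00737%. Without control replicate 1 the counts were 3 higher and 2 lower (3.82% of all tested genes in either direction), without LPS replicate 1 they were 0 and 2 (4.06%), without bLF replicate 2 they were 0 and 1 (0.786%), without bLF replicate 3 they were 1 and 0 (1.27%), and in a fit of only these groups 2 and 1 (2.89%). None of these passed adjustment. The median was −0.03 over the 81 genes and −0.03 over all tested genes. The smallest p was that of Tnfrsf12a, at 26.7, 37.9 and 32.5 FPKM in bLF lungs and 43.9, 48.2 and 38.2 FPKM in control lungs (−0.43 ± 0.22, SE; unadjusted p = 0.0817). Csf1, the macrophage growth factor, was at 5.96, 5.70 and 5.18 FPKM in bLF lungs and 6.18, 6.72 and 7.62 FPKM in control lungs, without overlap (−0.33 ± 0.18, SE; 95% interval −0.72 to 0.07). Il33 was at 6.60, 5.31 and 6.27 FPKM in bLF lungs and 7.73, 10.1 and 10.6 FPKM in control lungs, also without overlap (−0.64 ± 0.51, SE; interval −1.76 to 0.49). By FPKM 7 of the 81 genes had all bLF libraries below all control libraries, against 5.74% of all tested genes, and 2 had all above, against 2.21%. For Il18rap the interval was −0.51 to 0.64, for Il10ra −0.10 to 0.79 and for Tnf −1.38 to 1.86.

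Averaged over mice with and without LPS, again an average chosen after the levels were seen, bLF-exposed lungs had lower Il18rap (−0.66 ± 0.18), Tnfrsf11a (−0.53 ± 0.17), Il17rd (−0.46 ± 0.16), Tnfrsf26 (−0.70 ± 0.27), Il18 (−0.35 ± 0.15) and Csf1 (−0.28 ± 0.13) and higher Tnfrsf25 (0.60 ± 0.24) and Tnfrsf17 (1.27 ± 0.53; all SE) at an unadjusted p under 0.05. These were 6 of 81 lower and 2 of 81 higher, against 2.4% and 2.34% of all tested genes, and 0 passed adjustment with edgeR, against 0%. The counts moved with single libraries: without LPS replicate 1 they were 10 lower and 4 higher (11.4% of all tested genes in either direction), without control replicate 1 they were 9 and 1 (8.77%), without control replicate 3 and without LPS+bLF replicate 3 they were 3 and 0 (2.68% and 2.57%), without bLF replicate 1 they were 4 and 1 (2.13%), and without bLF replicate 2 they were 4 and 0 (3.33%). Without control replicate 2 the counts were 5 lower and 1 higher (2.82%), and without LPS+bLF replicate 1 they were 6 and 1 (5.81%). Il17rd, a modulator of IL-17 and fibroblast growth factor signalling, was at 1.58, 1.10 and 1.73 FPKM in LPS+bLF lungs, 2.55, 2.26 and 1.72 FPKM in LPS lungs, 1.61, 1.34 and 1.58 FPKM in bLF lungs and 2.02, 1.69 and 2.02 FPKM in control lungs. Tnfrsf25, the death-domain receptor DR3 of T cells, measured 20.4, 23.1 and 24.9 FPKM in LPS+bLF lungs, 7.16, 18.9 and 18.5 FPKM in LPS lungs, 26.0, 25.7 and 14.5 FPKM in bLF lungs and 23.5, 9.96 and 12.9 FPKM in control lungs. In both, bLF-exposed and other libraries overlapped.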

How the data were processed

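Per the labels' protocols, polyadenylated RNA of lung tissue was sequenced. Per the submitters' processing notes, HISAT2 2.1.0, RSEM 1.2.8 and build mm10 were used, with roles, annotation, strand and filters not given in the sources used here. Each of the 12 deposited files gives an expected count and an FPKM value per gene, per the file headers. That the deposited counts are RSEM-style expected counts was read from their values, given fractional values in 4.12 to 5.91% of genes per library. Replicates are separate mice by the labels.

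Expected counts were rounded. Tested genes reached 0.5 FPKM in 3 or more of the 12 libraries (13735 genes). One fit of 4 group means (edgeR 4.0.16 quasi-likelihood, TMM factors, R 4.3.3, 8 residual degrees of freedom) gave all comparisons, with two-sided tests, Benjamini-Hochberg adjustment per comparison and calls at 0.05. SE was derived from the F statistic. Libraries of the same group were checked against each other for duplicates, and none agreed within sampling noise. The code was tested on simulated counts. Alternatives used DESeq2 1.42.0, limma 3.58.1 on log2(FPKM + 1) or log2(FPKM + 0.1), other scalings and filters, a replicate block and omission of each library.

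Members, families, marker and pathway lists were chosen with earlier results of these data known. Named genes are the 5 smallest p per direction and comparison, the 3 highest of each family, the 8 most variable, and a list of well-known members; others are marked, and 1 of the pathway lists is not reported here. All 116 IDs matched the RefSeq table of GRCm38 (mm10).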

Additional observations from a re-analysis of the deposited data

How the results depend on the processing

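The edgeR counts of called genes were 0 in every comparison. With DESeq2 they were 138 for LPS versus control, 7 for LPS+bLF versus LPS, 1 for bLF versus control, 2 for LPS+bLF versus bLF, 1 for the interaction, 138 for the averaged LPS effect and 2 for the averaged bLF effect. Of the 81 cytokine and receptor genes DESeq2 called 5 for LPS versus control (Il18rap, Il10ra, Ebi3, Tnfrsf1b and Csf2rb), 1 for LPS+bLF versus LPS (Il18rap) and 6 for the averaged LPS effect. limma on log2(FPKM + 1) called 2 genes for LPS versus control and 3 for the averaged LPS effect, and on log2(FPKM + 0.1) 3 for the averaged LPS effect, with 0 of the 81 among them. Leaving out each library in turn gave 0 to 25 called genes and 0 to 2 of the 81 for LPS versus control, 0 to 2 genes for LPS+bLF versus LPS, 0 to 44 genes and 0 to 2 of the 81 for the averaged LPS effect, and 0 to 1 gene for the averaged bLF effect; the highest counts were without LPS replicate 1, and for the averaged bLF effect without bLF replicate 3. Over these omissions the log2 fold change of Tnf for LPS versus control ran from −0.11 to 1.16, that of Il21r for LPS+bLF versus LPS from −0.023 to 1.67, and the interaction of Il1r2 from −4.94 to 0.64. The cause was not tested. The replicate block called 0 genes in every comparison. Same-numbered mice had correlations of −0.69 to 0.57 over 18 pairs, with 5 over 0.1. With 3 mice per group these values cannot decide whether the numbers pair the mice. RLE and upper-quartile factors, no filter, a filter of 1 FPKM, a robust fit and a fit of only the groups compared called 0 genes. The averaged effects were chosen after seeing the data. Precision is limited by 3 mice per group, and for genes with few counts by depth.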
